A study of Homo sapiens with 6 samples.

Results

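The genes described here are 56 members of the machinery of mitosis, the kinetochore and the spindle, chosen by name and arranged in 11 groups by their role. All 56 had a row in the deposited RNA-seq values, among 17066 gene names in all, and all 56 were above 1 FPKM in at least 1 group. The cells were K562, a human leukemia line with erythroid features that lacks C/EBPα, carrying Tet-inducible transgenes in PiggyBac transposons. CTR cells held the empty vector, CEBPA cells wild-type C/EBPα, the transcription factor needed for granulocyte formation, and P30 cells the shorter p30 isoform found in acute myeloid leukemia. All 3 lines received 200 ng/ml doxycycline for 48 h and none was sequenced without it, and whether each line was 1 clone is not given in the sources used here. The question put to the members is how their RNA differed between cells with the full-length factor, cells with the short isoform and control cells.

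The 2 replicates of each group were pooled by the authors into 1 FPKM per gene, a fragment count scaled to transcript length and to library size. No spread between replicates can be had from such values, so each value below stands without error or test, and neither agreement between replicates nor read depth can be read from it. The study's own text describes both for its libraries, which was not used here. Change means the difference of log2(FPKM + 1), first group minus second, which makes the changes of weakly expressed genes look smaller than they are, and folds of 1.5 and 2 were counted on this scale. Differences between groups are also differences between separately made cell lines, and the sequencing runs of the replicates cannot be told apart in pooled values.

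Mitosis is driven by the kinase CDK1 with cyclins A and B, and by the polo and Aurora kinases. Chromosomes are compacted by condensin, attached to spindle microtubules through the kinetochore built on the centromere, and held by the spindle checkpoint until every one is attached, after which the anaphase-promoting complex releases them. Many of these genes are transcribed late in the cell cycle through short promoter elements, the CHR element and the CCAAT box, bound by complexes that include the MuvB core, B-MYB, FOXM1 and NF-Y.

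Promoter letters were at hand for 46 of the 56 members, with 61 starts, in a RefSeq table of build GRCh38.p14 that covers 250 bases before and 50 after each start. The motifs searched on both strands were CHR (TTTGAA or TTCGAA), the CCAAT box (CCAAT), the E2F site (TTTCCCGC, TTTGGCGC or TTTCGCGC) and the C/EBP site (TTGCNNAA). A CHR match lay in 38 of the 61 windows (62.3%), against 12.2% of 12483 windows of genes above 1 FPKM and 16.4% of all 35116 windows. For the CCAAT box the shares were 63.9%, 34.6% and 34.6%. An E2F match lay in 6.56% of the members' windows, 4.01% of those of genes above 1 FPKM and 2.74% of all, and a C/EBP match in 9.84%, 7.88% and 10.5%. CHR and CCAAT matches were thus more frequent in the members' windows than in the others, while the share with a C/EBP match lay between those of the expressed genes and of all windows.

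The 250 bases before the start are printed for the 3 members with the largest decrease and the 2 with the largest increase in CEBPA vs P30 among those with a promoter in the table. They are shown as the ends of the members' range. Capitals mark matches to the motifs named above on either strand, so that ATTGG is a CCAAT box on the reverse strand. The windows lie at chr20:43666864-43667113 on the plus strand for MYBL2, chr19:11155783-11156032 on the minus strand for SPC24, chr2:168890431-168890680 on the minus strand for SPC25, chr4:120066849-120067098 on the minus strand for MAD2L1 and chr5:138178862-138179111 on the plus strand for KIF20A, all in GRCh38.p14.
MYBL2: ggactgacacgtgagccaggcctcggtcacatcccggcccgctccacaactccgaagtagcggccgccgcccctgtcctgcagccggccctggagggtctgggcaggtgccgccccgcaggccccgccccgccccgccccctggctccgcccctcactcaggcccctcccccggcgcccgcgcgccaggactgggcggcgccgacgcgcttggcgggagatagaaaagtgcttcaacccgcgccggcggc
SPC24: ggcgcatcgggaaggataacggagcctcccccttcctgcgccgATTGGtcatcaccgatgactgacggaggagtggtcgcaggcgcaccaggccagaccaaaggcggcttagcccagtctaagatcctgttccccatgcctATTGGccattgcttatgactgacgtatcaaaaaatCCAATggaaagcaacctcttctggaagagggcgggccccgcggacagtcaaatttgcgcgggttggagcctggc
SPC25: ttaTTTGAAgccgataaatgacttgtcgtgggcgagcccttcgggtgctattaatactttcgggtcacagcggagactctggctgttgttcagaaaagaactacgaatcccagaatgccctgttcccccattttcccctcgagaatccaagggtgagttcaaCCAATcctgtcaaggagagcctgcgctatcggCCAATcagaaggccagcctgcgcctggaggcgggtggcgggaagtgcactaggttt
MAD2L1: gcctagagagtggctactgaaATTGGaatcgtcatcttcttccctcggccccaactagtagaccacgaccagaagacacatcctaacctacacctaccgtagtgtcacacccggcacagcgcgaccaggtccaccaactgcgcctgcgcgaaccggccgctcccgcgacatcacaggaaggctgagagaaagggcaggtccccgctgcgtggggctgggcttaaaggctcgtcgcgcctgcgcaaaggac
KIF20A: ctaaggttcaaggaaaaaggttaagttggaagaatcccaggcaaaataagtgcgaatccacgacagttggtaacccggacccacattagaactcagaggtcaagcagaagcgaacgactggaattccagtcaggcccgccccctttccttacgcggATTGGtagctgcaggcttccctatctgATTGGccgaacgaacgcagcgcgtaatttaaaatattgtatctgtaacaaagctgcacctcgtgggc
MYBL2, with the largest decrease, held no exact match to the motifs in these letters. Only the exact strings named above were searched, so sites with other letters, E2F sites among them, were not counted. SPC24 held 3 CCAAT boxes, at positions -207, -109 and -74, and KIF20A, with the largest increase, held 2, at -94 and -67. SPC25 held a CHR match at -247, CCAAT boxes at -88 and -56, and a further CHR match that begins at -3 and runs over the start, so it is not marked. MAD2L1 held a CCAAT box at -229 and a CHR match at 25, downstream of the printed letters. By motif, the 34 members with a CHR match had a median change of -0.41 in CEBPA vs P30 and the 12 without it -0.60, while the 34 with a CCAAT box were at -0.54 and the 12 without it at -0.31. The 3 members with an E2F match were at -0.74 and the 43 without it at -0.39, and the 5 with a C/EBP match at -0.35 and the 41 without it at -0.53. No test of these differences can be made from pooled values.

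Across the members, RNA was lower in CEBPA cells than in either other line. In CEBPA vs CTR the median change was -0.42, against -0.01 over the 13673 genes compared, and 44 of 56 members were lower, where 50.5% of all genes were. At least 1.5-fold lower were 23 members (18.6% of all genes), at least 2-fold lower were 8 (6.92% of all genes), and at least 1.5-fold higher was 1, KIF20A (24% of all genes). In CEBPA vs P30 the median was -0.50, against -0.04 over 13569 genes, and 47 members were lower (52.1% of all genes), 25 of them at least 1.5-fold (17.8%) and 8 at least 2-fold (5.79%), with KIF20A again the 1 member at least 1.5-fold higher (22.3%). These 2 comparisons share the CEBPA values, so the second is not a separate observation of the first.

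Summed over the 56 members, the level was 3134 FPKM in CTR, 2280 in CEBPA cells and 3204 in P30, or 0.727 times CTR and 0.712 times P30. The CEBPA level was the lowest of the 3 for 43 members and the highest for 8. Neither count was made over all genes, of which 50.5% were lower than in CTR and 52.1% lower than in P30. In RNA from whole cultures, fewer cells in mitosis and less RNA per cell cannot be told apart.

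**Figure D1:**
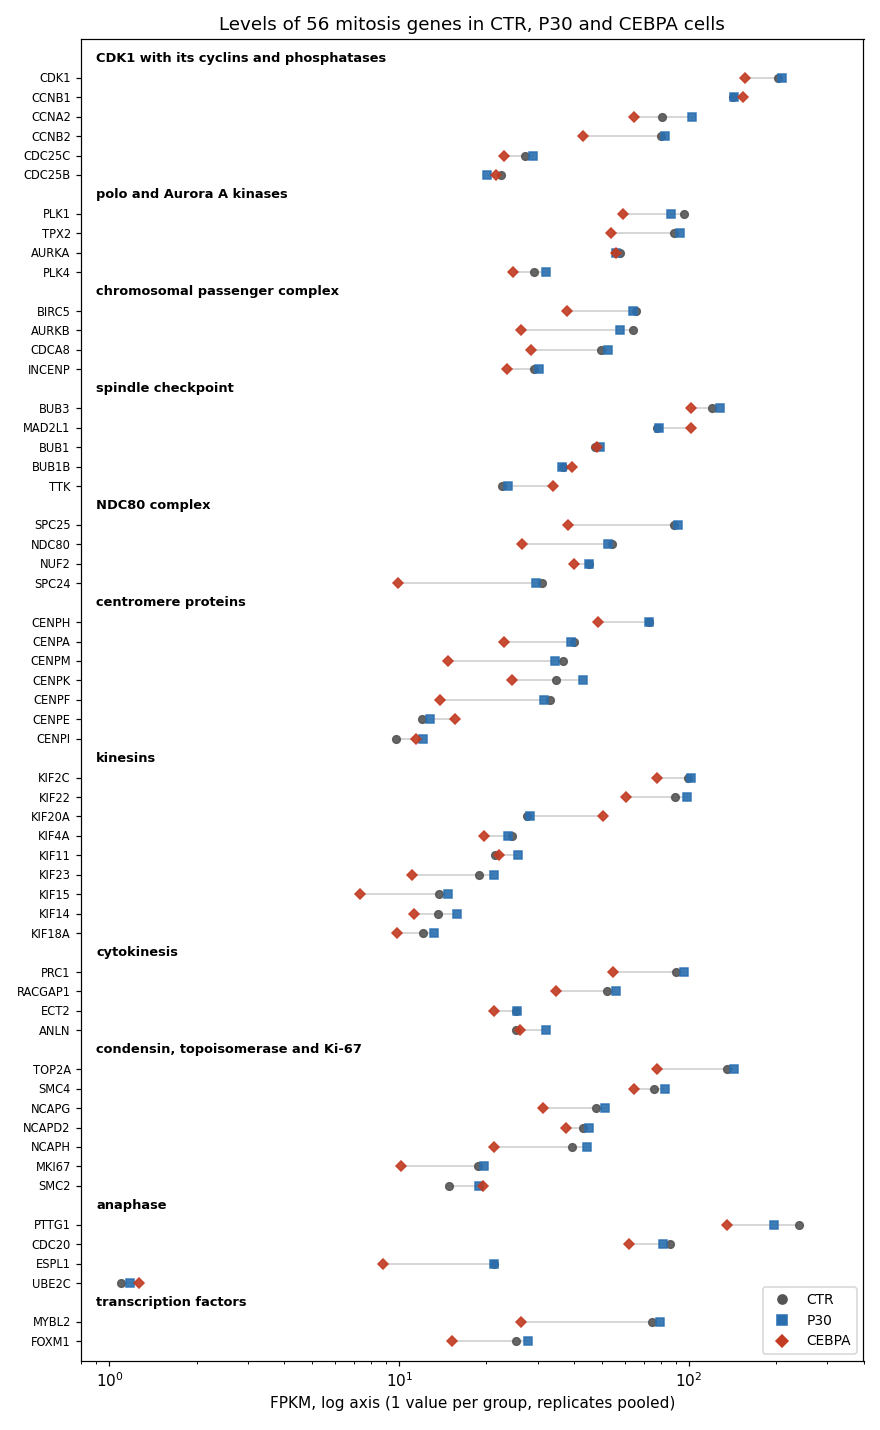
FPKM of each of the 56 members on a log axis, by role, with a circle for CTR, a square for P30 and a diamond for CEBPA, 1 pooled value per group and no error. The circle and square lie close together for most genes, as the 2 groups did over all genes (interquartile range of the change -0.11 to 0.15). The diamond lies to the left of both for 43 members, a count that was not made over all genes.

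P30 cells stood close to CTR cells in the members, as they did over all genes. The median change in P30 vs CTR was 0.06, against 0.02 over 12395 genes, and 39 of 56 members were higher, where 55.1% of all genes were. No member was 1.5-fold lower (2.63% of all genes) or 1.5-fold higher (2.69% of all genes). The range over the members ran from -0.28 for PTTG1 to 0.35 for CCNA2, and for all genes the interquartile range was -0.11 to 0.15. With changes centred within bins of transcript GC content, 29 members were lower in P30 instead of 17, so the members as a set took no direction here that held under both scalings.

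**Figure D2:**
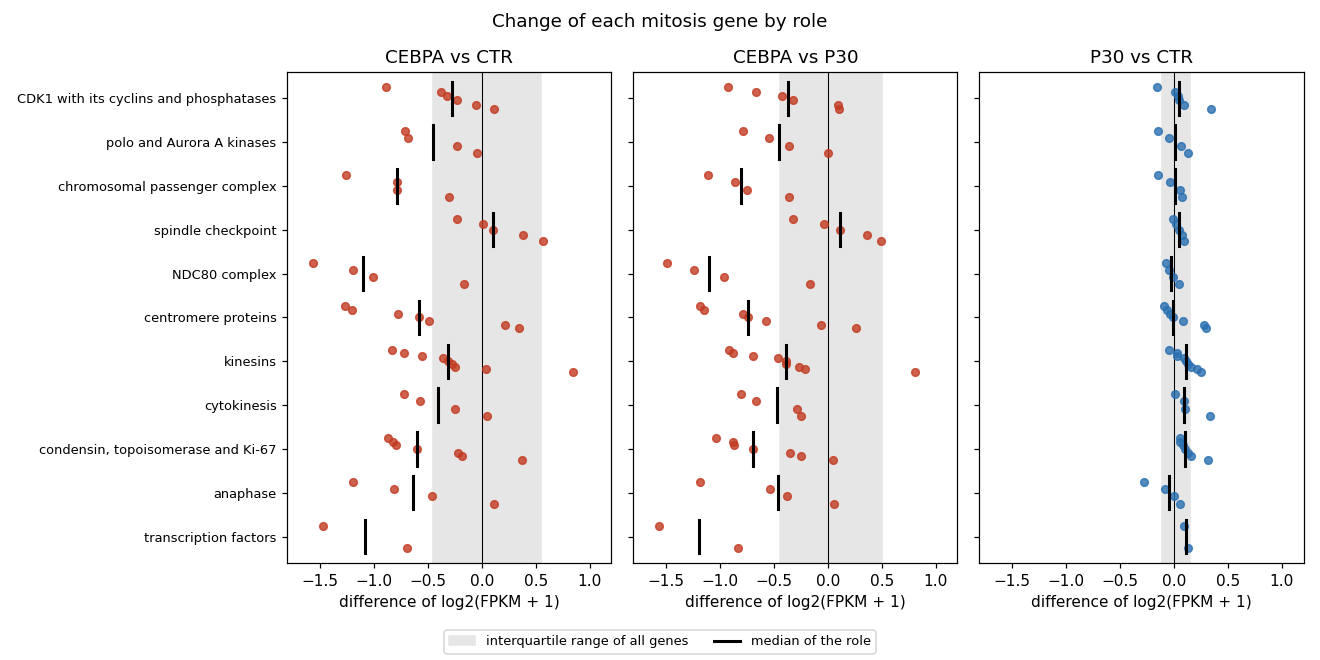
Change of each member, as a difference of log2(FPKM + 1), in the 3 comparisons, with 1 point per gene, a black bar at the median of each role and a grey band over the interquartile range of all genes compared (-0.45 to 0.55 in the first, -0.44 to 0.50 in the second and -0.11 to 0.15 in P30 vs CTR). The NDC80 complex and the transcription factors lie farthest to the left in the CEBPA panels. When changes are centred by GC content, the NDC80 medians are -1.31 and -1.20. The 2 transcription factors are then at -0.70 and -0.83, less low than condensin, topoisomerase and Ki-67 at -0.86 and -0.87. The spindle checkpoint lies right of zero by its median, which turns to -0.21 and -0.11 under that centring.

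Both transcription factors of the set were lower in CEBPA cells. MYBL2 encodes B-MYB, which joins the MuvB core to switch on mitotic genes, and lies at chr20:42295659-42345135 on the plus strand of GRCh37 with 14 exons. It was at 74.3 FPKM in CTR, 26.2 in CEBPA cells and 79.6 in P30. Its changes of -1.47 against CTR and -1.57 against P30 in CEBPA cells placed it among the lowest 2.201% and 1.15% of all genes, and the CEBPA value was 0.329 times that of P30. Centred by GC content, these changes were -1.04 and -1.18. FOXM1, a forkhead factor that acts with B-MYB in late G2, was at 25.3 FPKM in CTR, 15.2 in CEBPA cells and 27.8 in P30, with changes of -0.70 and -0.83 that were -0.36 and -0.48, under 1.5-fold, when centred by GC content.

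The NDC80 complex, the 4-subunit rod that grips the microtubule at the outer kinetochore, had the lowest median change of the 11 roles in CEBPA vs CTR, at -1.10. Its subunits were uneven. SPC24, which anchors the rod to the inner kinetochore and lies at chr19:11242196-11266483 on the minus strand of GRCh37, was at 31.2 FPKM in CTR, 9.92 in CEBPA cells and 29.6 in P30, changes of -1.56 and -1.49. SPC25, its direct partner at chr2:169690642-169769881 on the minus strand, was at 88.8, 38.3 and 91.6 FPKM, changes of -1.19 and -1.24. NDC80 itself, at the microtubule end, was at 54.3, 26.5 and 52.6 FPKM, changes of -1.01 and -0.96. NUF2, the partner of NDC80, was far less reduced, at 45.2 FPKM in CTR, 40.1 in CEBPA cells and 45.1 in P30, changes of -0.17 and -0.16. The ratio of NUF2 to NDC80 was thus 0.833 in CTR and 0.858 in P30, and 1.52 in CEBPA cells, so the partner with more RNA was not the same one in CEBPA cells as in the others. The ratio of SPC25 to SPC24 also differed, with 2.85 in CTR, 3.09 in P30 and 3.86 in CEBPA.

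The chromosomal passenger complex corrects faulty attachments and guides cytokinesis, and all 4 of its members were lower in CEBPA cells, with medians of -0.78 against CTR and -0.80 against P30. AURKB, its kinase, was at 64.2 FPKM in CTR, 26.2 in CEBPA cells and 57.8 in P30, changes of -1.26 and -1.11. Centred by GC content, AURKB was at -0.93 and -0.76. BIRC5, which encodes survivin, was at 65.8, 37.8 and 64.0 FPKM, and CDCA8, which encodes borealin, at 49.7, 28.4 and 52.5 FPKM. These subunits were each between 1.5-fold and 2-fold lower, with BIRC5 at -0.78 and -0.75 and CDCA8 at -0.78 and -0.86. INCENP, the scaffold that activates the kinase, was at 29.1 FPKM in CTR, 23.5 in CEBPA cells and 30.4 in P30, changes of -0.30 and -0.36 that turned to 0.13 and 0.03 when centred by GC content. The ratio of INCENP to AURKB was 0.454 in CTR, 0.895 in CEBPA cells and 0.526 in P30.

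Against this kinase, AURKA, the Aurora kinase of the centrosome and spindle poles, was nearly level, with 57.9 FPKM in CTR, 56.01 in CEBPA cells and 56.1 in P30. The ratio of AURKA to AURKB was 0.902 in CTR, 0.971 in P30 and 2.14 in CEBPA cells. TPX2, which binds and activates Aurora A on the spindle, was at 88.9, 53.8 and 93.4 FPKM, changes of -0.71 and -0.78. PLK1, the polo kinase needed from centrosome maturation to cytokinesis, was at 96.0 FPKM in CTR, 59.3 in CEBPA cells and 86.7 in P30, changes of -0.68 and -0.54 that were -0.29 and -0.15 when centred by GC content. PLK4, the kinase that starts centriole duplication, was at 29.1, 24.8 and 32.0 FPKM, less than 1.5-fold apart.

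CDK1 and its cyclins differed less, with role medians of -0.27 against CTR and -0.37 against P30. CDK1 was at 203 FPKM in CTR, 156 in CEBPA cells and 210 in P30, changes of -0.38 and -0.42, and was the member with the highest level in CEBPA and P30 cells. The cyclins that bind it took different courses. CCNB2 was at 80.3 FPKM in CTR, 43.0 in CEBPA cells and 82.7 in P30, changes of -0.88 and -0.93, while CCNB1 was at 142, 153 and 143 FPKM, changes of 0.11 and 0.10 that turned to -0.12 and -0.07 when centred by GC content. The ratio of CCNB1 to CCNB2 was 1.77 in CTR, 1.72 in P30 and 3.56 in CEBPA. CCNA2, the cyclin A of S phase and early mitosis, was at 80.7 FPKM in CTR, 64.4 in CEBPA cells and 103 in P30, and was the member with the largest increase in P30 vs CTR, 0.35. Of the phosphatases that activate CDK1, CDC25B was at 22.4, 21.6 and 20.1 FPKM and CDC25C at 27.1, 22.98 and 29.0 FPKM, with no change past 1.5-fold.

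The spindle checkpoint was the 1 role without a decrease by its median, at 0.10 against CTR and 0.11 against P30, although these medians turned to -0.21 and -0.11 when centred by GC content. None of its 5 members was 1.5-fold lower, where 18.6% and 17.8% of all genes were, and 5 genes are too few to read a share from. TTK, the kinase MPS1 that starts the checkpoint signal at unattached kinetochores, was at 22.6 FPKM in CTR, 33.9 in CEBPA cells and 23.8 in P30, changes of 0.56 and 0.49. MAD2L1, whose product binds and holds back CDC20, was at 77.3, 101 and 78.5 FPKM, changes of 0.39 and 0.36. It lies at chr4:120976778-120988013 on the minus strand of GRCh37. Centring by GC content left TTK at 0.24 and 0.31 and MAD2L1 at 0.08 and 0.17. BUB1, a kinase of the checkpoint, was at 47.4, 48.0 and 49.1 FPKM, BUB1B, which encodes BUBR1, at 36.6, 39.5 and 36.4, and BUB3, which brings both to the kinetochore, at 120, 102 and 128. BUB1 and BUB1B thus lay within 10 percent of CTR in both other lines, and the ratio of MAD2L1 to BUB3 was 0.645 in CTR, 0.613 in P30 and 0.994 in CEBPA.

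Among the 7 centromere proteins the medians were -0.58 and -0.74, and the members ranged more widely than in any other role but the kinesins. CENPM, of the inner kinetochore, was at 36.8 FPKM in CTR, 14.7 in CEBPA cells and 34.6 in P30. Its changes of -1.27 and -1.18 were -0.84 and -0.80 when centred by GC content. CENPF, a large coiled-coil protein of the outer kinetochore, was at 33.0, 13.8 and 31.6 FPKM, changes of -1.20 and -1.14. The other kinetochore protein of this size, the kinesin CENPE that carries chromosomes to the equator, went the other way, at 11.995 FPKM in CTR, 15.6 in CEBPA cells and 12.8 in P30, changes of 0.35 and 0.26 that were 0.03 and 0.08 when centred by GC content. The ratio of CENPE to CENPF was 0.363 in CTR, 0.404 in P30 and 1.13 in CEBPA. CENPA, the histone H3 variant that marks the centromere, was at 40.2, 23.1 and 39.2 FPKM, changes of -0.77 and -0.74. CENPH was at 73.0, 48.3 and 72.5 FPKM and its neighbour in the inner kinetochore CENPK at 34.7, 24.5 and 42.9 FPKM, so that CENPK was 0.30 higher in P30 than in CTR. CENPI was at 9.75, 11.5 and 12.04 FPKM, with CTR the lowest.

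Most of the 9 kinesins, the motors of the spindle, were modestly lower in CEBPA cells, with medians of -0.31 and -0.39, and KIF20A was the exception. KIF20A, which carries the passenger complex to the midzone, was at 27.6 FPKM in CTR, 50.3 in CEBPA cells and 28.3 in P30, changes of 0.84 and 0.81 that were 0.80 and 0.82 when centred by GC content. It lies at chr5:137514408-137523412 on the plus strand of GRCh37, and its exons overlap those of CDC23 and BRD8 on the opposite strand, so reads of these genes may be shared if strand was not used in counting. CDC23 itself was at 42.2 FPKM in CTR, 41.9 in CEBPA cells and 43.9 in P30. KIF23, a midzone kinesin with a role near that of KIF20A, was at 18.9, 11.1 and 21.2 FPKM, changes of -0.72 and -0.88, and the ratio of KIF20A to KIF23 was 1.46 in CTR, 1.33 in P30 and 4.54 in CEBPA. KIF15, which helps to keep the spindle bipolar, was at 13.8, 7.32 and 14.7 FPKM, changes of -0.83 and -0.92. KIF11, the motor that pushes the poles apart, was at 21.5, 22.1 and 25.7 FPKM, a change of 0.04 against CTR that turned to -0.27 when centred by GC content. KIF22, a chromosome-arm motor, was at 89.7, 60.7 and 98.4 FPKM, changes of -0.56 and -0.69 that were -0.16 and -0.30 when centred by GC content. The remaining kinesins were all less than 1.5-fold lower in CEBPA: KIF2C, a microtubule depolymerase, KIF4A, KIF14 and KIF18A had changes between -0.36 and -0.25 against CTR and between -0.46 and -0.27 against P30.

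Of the cytokinesis genes, PRC1, which bundles the midzone microtubules, was at 90.5 FPKM in CTR, 54.7 in CEBPA cells and 96.3 in P30, changes of -0.71 and -0.80. RACGAP1, part of the centralspindlin complex with the KIF23 protein, was at 52.2, 34.9 and 55.9 FPKM, changes of -0.57 and -0.67. ECT2, the exchange factor that activates RhoA at the equator, was at 25.3, 21.2 and 25.5 FPKM. ANLN, which encodes the scaffold anillin, was at 25.3, 26.2 and 32.1 FPKM. PRC1 and RACGAP1 were thus lower in CEBPA by an amount near that of KIF23, and ANLN differed mainly by its P30 level, 0.33 above CTR.

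The genes of chromosome structure had medians of -0.59 and -0.70. TOP2A, the topoisomerase that untangles sister chromatids, was at 135 FPKM in CTR, 77.5 in CEBPA cells and 143 in P30, changes of -0.79 and -0.87. MKI67, which encodes the proliferation marker Ki-67 that coats mitotic chromosomes, was at 18.7, 10.2 and 19.5 FPKM, changes of -0.82 and -0.88. The condensin I subunits were lower by unequal amounts: NCAPH was at 39.6, 21.2 and 44.4 FPKM, changes of -0.87 and -1.03, NCAPG at 47.9, 31.3 and 51.4 FPKM, changes of -0.59 and -0.70, and NCAPD2 at 43.1, 37.8 and 44.999 FPKM, changes of -0.19 and -0.25. Of the ATPases shared by both condensins, SMC4 was at 75.5, 64.8 and 82.6 FPKM, and SMC2 at 14.9 FPKM in CTR, 19.5 in CEBPA cells and 18.8 in P30. SMC2 was therefore higher than CTR in both transgene lines, by 0.37 and 0.32, or 0.10 and 0.21 when centred by GC content. The ratio of NCAPH to NCAPD2 was 0.918 in CTR, 0.986 in P30 and 0.561 in CEBPA.

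The genes that act at anaphase were mixed. ESPL1, the protease separase that cuts cohesin, was at 21.2 FPKM in CTR, 8.76 in CEBPA cells and 21.2 in P30, changes of -1.19 in both comparisons. PTTG1, which encodes securin, the inhibitor of separase, had the highest CTR level of the 56 members, with 239 FPKM in CTR, 136 in CEBPA cells and 196 in P30, changes of -0.81 and -0.53. Centring by GC content left these at -1.01 and -0.65. PTTG1 was also the member with the largest decrease in P30 vs CTR, -0.28, but its near-identical copies PTTG2 and PTTG3P make its level uncertain, as does KIF4B for KIF4A. CDC20, the activator of the anaphase-promoting complex, was at 85.7, 61.9 and 81.0 FPKM, changes of -0.46 and -0.38, the latter 0.01 when centred by GC content. UBE2C, a ubiquitin-conjugating enzyme of that complex, was listed at 1.09, 1.27 and 1.18 FPKM, the lowest level of the 56 members in each line, where the next lowest in CTR was CENPI. At this level, the added 1 carries nearly as much weight as the values themselves.

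Beyond the members, 78 of 84 other listed genes of mitosis had a row and were compared. Their medians were -0.22 against CTR and -0.39 against P30 in CEBPA cells, with 56 and 57 of them lower, where 50.5% and 52.1% of all genes were. At least 1.5-fold lower were 22 (28.2%) and 27 (34.6%), against 18.6% and 17.8% of all genes, and at least 1.5-fold higher were 4 and 4 (5.13% each), against 24% and 22.3%. Among 26 other kinetochore and centromere genes, 6 (23.1%) and 7 (26.9%) were at least 1.5-fold lower, not far above the shares of all genes, and 2 and 2 (7.69% each) higher. MAD1L1, the checkpoint partner of MAD2, was at 32.8 FPKM in CTR, 12.01 in CEBPA cells and 33.2 in P30, and ZWINT, a linker of the outer kinetochore, at 114, 57.6 and 135. In the other direction, CENPQ of the inner kinetochore was at 17.4, 51.1 and 20.5 FPKM, changes of 1.503 and 1.28. Partners in 1 pathway thus lay on opposite sides, as MAD1L1 and MAD2L1 did. Centred by GC content, MAD2L1 was only at 0.08 and 0.17, and MAD1L1 was not examined in that way.

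Among 18 other spindle and cytokinesis genes, 7 (38.9%) and 8 (44.4%) were at least 1.5-fold lower, against 18.6% and 17.8% of all genes. None was 1.5-fold higher, against 24% and 22.3%. PSRC1, a microtubule-binding protein of the spindle, was at 38.7 FPKM in CTR, 10.2 in CEBPA cells and 36.4 in P30, changes of -1.82 and -1.73, larger than those of any member. GTSE1, another spindle protein, was at 15.2, 8.39 and 17.1 FPKM, whereas KIF20B, a relative of KIF20A, was at 10.9, 14.6 and 10.2 and BORA, an activator of Aurora A, at 11.8, 16.7 and 13.9. Of 17 genes of the anaphase-promoting complex and its regulators, 4 (23.5%) and 5 (29.4%) were at least 1.5-fold lower, against 18.6% and 17.8% of all genes. None was 1.5-fold higher, against 24% and 22.3%. Its small catalytic subunit ANAPC11 was at 180 FPKM in CTR, 90.4 in CEBPA cells and 168 in P30 and ANAPC15 at 36.7, 21.9 and 38.3, while ANAPC1 was at 20.1, 25.7 and 20.8 and ANAPC13 at 43.4, 57.1 and 42.8. Of the 17, 12 were lower against CTR and 11 against P30, where 50.5% and 52.1% of all genes were, with list medians of -0.10 and -0.13.

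Of 13 other condensin and cohesin genes, 5 (38.5%) and 6 (46.2%) were at least 1.5-fold lower, against 18.6% and 17.8% of all genes, with medians of -0.35 and -0.44. All 13 were higher in P30 than in CTR, where 55.1% of all genes were, with a median of 0.15 against 0.02. Whether that direction holds when centred by GC content was not tested. CDCA5, which encodes sororin, was at 65.5 FPKM in CTR, 40.7 in CEBPA cells and 74.7 in P30, and NCAPG2, of condensin II, at 47.2, 26.4 and 47.8. STAG1, a cohesin subunit, was at 6.52, 7.69 and 7.29 FPKM and WAPAL, which releases cohesin, at 14.1, 18.7 and 16.7. Of the MuvB core, the complex that B-MYB joins, 3 of 4 measured subunits were higher in CEBPA cells than in CTR and 2 of 4 higher than in P30. Among all genes, 6771 of 13673 and 6495 of 13569 were higher, and 4 genes are too few to read a share from. LIN54, its DNA-binding subunit for the CHR element, was at 7.66 FPKM in CTR, 20.7 in CEBPA cells and 9.18 in P30, changes of 1.33 and 1.09. LIN52 was at 4.45, 9.28 and 5.38 FPKM, LIN9 at 12.9, 15.6 and 15.7, and RBBP4, a histone-binding protein with other partners too, at 179, 121 and 194.

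DNA replication genes, the other large group with cell cycle expression, were at least as low. The 31 compared had medians of -0.59 against CTR and -0.67 against P30 in CEBPA cells. Of these, 16 (51.6%) and 20 (64.5%) were at least 1.5-fold lower, against 18.6% and 17.8% of all genes. At least 2-fold lower were 5 and 11, against 6.92% and 5.79% of all genes. POLA1 went the other way, at 1.99 and 1.78. It was the 1 gene of this list at least 1.5-fold higher (24% and 22.3% of all genes). In P30 vs CTR, 29 of the 31 were higher, where 55.1% of all genes were, with a median of 0.16, against 0.06 for the mitosis genes. The lower level in CEBPA cells was thus also found outside the mitosis genes.

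**Figure D3:**
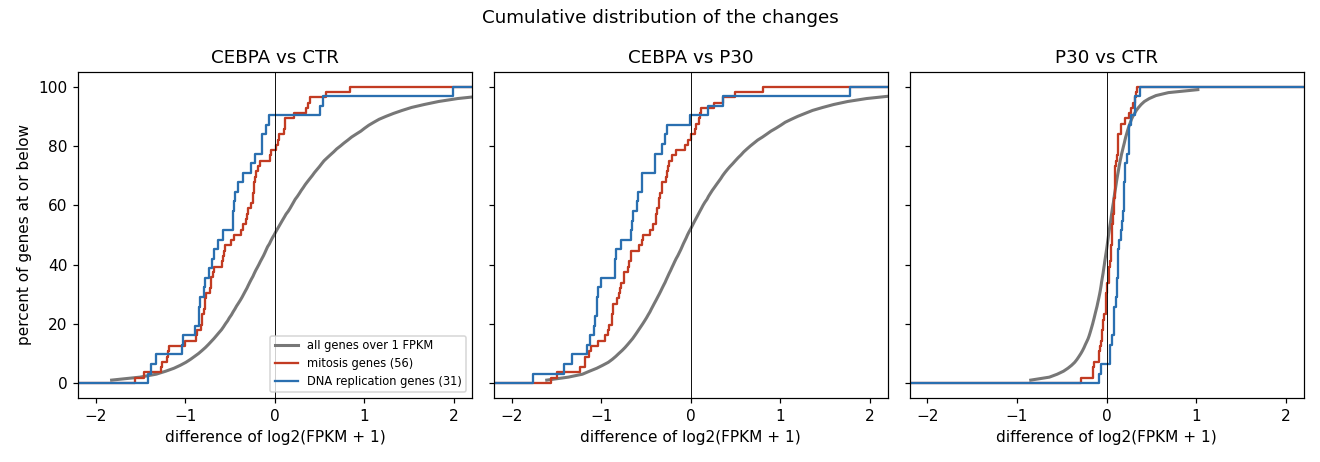
Cumulative percent of genes at or below each change, as a difference of log2(FPKM + 1), for all genes above 1 FPKM in either group (grey), the 56 mitosis genes (red) and 31 DNA replication genes (blue), in the 3 comparisons. In both CEBPA panels the red and blue curves lie left of the grey one over most of the range, with medians of -0.42 and -0.59 against -0.01 and of -0.50 and -0.67 against -0.04, and in P30 vs CTR the red curve crosses the grey one.

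The changes in CEBPA cells also moved with base composition. Over 10816 protein-coding genes with a transcript in the annotation, the median change in CEBPA vs CTR went from 0.30 in the lowest of 10 equal groups by GC content to -0.56 in the highest, with Pearson's r of -0.35 across genes, which are not independent replicates. Across the 56 members, which share the same libraries, r was -0.41. The members have AT-rich transcripts, with a median GC content of 43.8% against 47.9% over all these genes, so they lie where other genes were higher in CEBPA cells. Among the 30 members under 45% GC the median change was -0.24 and 7 (23.3%) were at least 1.5-fold lower, where the 4258 genes of that range had a median of 0.27 and 5.73% were. Among the 26 members at or above 45% the median was -0.71 and 16 (61.5%) were at least 1.5-fold lower, against a median of -0.24 and 28.2% over 6558 genes. The members were thus lower than other genes of like GC content in both ranges. In CEBPA vs P30 the values were -0.35 and 33.3% against 0.18 and 7.04% under 45% GC, and -0.74 and 57.7% against -0.25 and 26.8% above it. Centring within bins of GC content ended the 1.5-fold decrease of 2 members in each CEBPA comparison, namely PLK1 and FOXM1 against CTR and KIF22 and FOXM1 against P30. It added 5 against CTR, namely CDK1, CENPH, CENPK, KIF18A and RACGAP1, and 4 against P30, namely CDK1, CENPH, KIF14 and PTTG1. AURKB, CENPM and ESPL1 were no longer 2-fold lower in either comparison, while the members at least 2-fold lower went from 8 to 10 in each. The direction turned for 8 members against CTR, namely CCNB1, CDC25B, INCENP, BUB1, BUB1B, CENPI, KIF11 and ANLN, and for 5 against P30, namely CCNB1, INCENP, BUB1B, SMC2 and CDC20. The part of base composition in the level of any 1 gene was not tested.

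**Figure D4:**
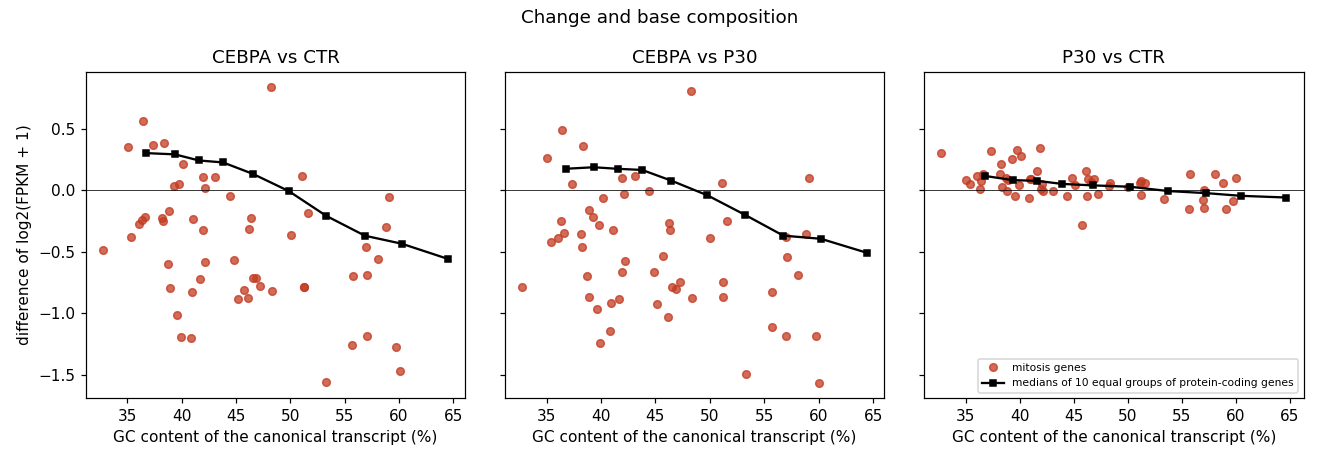
Change of each of the 56 members (red points), as a difference of log2(FPKM + 1), against the GC content of its canonical transcript in percent, with black squares at the medians of 10 equal groups of protein-coding genes by GC content. In both CEBPA panels most points lie below the black line, and in P30 vs CTR they lie around it. Among those above it in the CEBPA panels are INCENP and CDC25B, at 58.8% and 59.1% GC.

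Cell identity moved in the same libraries. Of 9 erythroid markers, 7 were at least 2-fold lower in CEBPA vs CTR (6.92% of all genes). The 9 summed to 1938 FPKM in CTR, 779 in CEBPA cells and 1450 in P30. GATA1 and the globin gene HBG1 were present in all 3 lines, as the K562 label has it. Of 8 granulocyte markers above 1 FPKM in this comparison, 6 were at least 2-fold higher, against 1921 of 13673 genes. The other 2, AZU1 and ITGAM, were slightly lower. The list of 9 summed to 55.6 FPKM in CTR, 11820 in CEBPA cells and 98.6 in P30. Most of the CEBPA sum came from S100A8, S100A9, S100A12 and LYZ, and LYZ alone was at 45.5 FPKM in CTR. In P30 vs CTR, 5 of 8 were at least 2-fold higher, against 126 of 12395 genes, with ITGAM at 2.59 FPKM in CTR and 14.3 in P30. Lymphocyte and stroma markers summed to 15.7, 6.31 and 16.4 FPKM, and no marker of these lists was at 0. The 11 housekeeping genes compared had medians of -0.21 and -0.32 in the CEBPA comparisons, so lower levels, by less than in the members, were also found in genes with no role in the cell cycle. The share of these shifts in the members' values was not tested.

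Exons of 19 members overlap those of another gene in the GRCh37 annotation, 17 of them on the opposite strand. The libraries were stranded, but whether counting used strand is not given in the sources used here, so for CCNA2, which overlaps EXOSC9, and for the rest of these 19 the level may hold reads of the neighbour.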

How the data were processed

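RNA-seq libraries of 6 K562 samples, 2 replicates each of CTR, CEBPA and P30, were aligned by the authors to hg19 with TopHat, assembled with Cufflinks on a Gencode annotation and quantified with Cuffdiff, which pooled the replicates. In the 3 deposited pairwise tables each gene has 1 FPKM value for each of 2 groups, and the library normalization setting is not given in the sources used here. No column of values was left out. The level of the CEBPA gene itself was not analysed here.

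Differences of log2(FPKM + 1) were computed among genes with over 1 FPKM in either group. Folds of 1.5 and 2 were counted on that scale. The members, lists and tests were chosen with earlier results of these data known, and the genes outside mitosis in the closing section were listed after the values were seen. The text names all 56 members and, for each list of other mitosis genes, the 2 largest rises and the 2 largest falls in CEBPA vs P30. Other genes named were chosen after their values were seen. Some listed genes were not analysed here, and 1 gene that this rule names is not reported here.

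Gene positions, exons and GC content come from 1 canonical transcript per gene in Gencode 44 lifted to GRCh37, the authors' build but a later release than theirs. Such a transcript was found for all 56 members and, with older symbols matched through RefSeq, for 84.0%, 84.2% and 85.8% of the gene names compared in CEBPA vs CTR, CEBPA vs P30 and P30 vs CTR. GC bins used protein-coding genes. Promoters are those of RefSeq, build GRCh38.p14, and gene and promoter coordinates are therefore not on 1 build.

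The alternatives were a pseudocount of 0.1, centring on the median, rescaling each group to the same sum, no filter, a filter at 5 FPKM, summing rows with the same symbol, and genes listed in all 3 tables. Centring within 20 bins of GC content or of mean level was added after seeing the data. The scripts were tested on simulated data. Python 3.11.15, numpy 2.4.6, pandas 2.3.3 and matplotlib 3.10.9 were used.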

Additional observations from a re-analysis of the deposited data

How the results depend on the processing

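The median changes of the members kept their direction in both CEBPA comparisons under the 7 planned and 2 added alternatives. Rescaling each group to the same sum moved the median of all genes to 0.11 against CTR and 0.10 against P30 in CEBPA cells, and the members' medians to -0.29 and -0.36. It left 2 members at least 1.5-fold higher in each of these comparisons, in place of 1, and centring within bins of mean level left 3 in each. Centring within bins of GC content gave medians of -0.55 and -0.55, and -0.00293 in P30 vs CTR, where 29 members were lower in place of 17. A value was counted as moved where it shifted by over 0.20, the scaled median absolute deviation of all changes in P30 vs CTR, or a count by over 1.5 times. By this measure 130 of 135 summary values, 286 of 297 role medians and 1433 of 1509 single gene values were unmoved, and the role medians and genes that moved did so under centring within bins of GC content (67) or of mean level (20). The filter at 5 FPKM removed UBE2C. No paired analysis was possible because the values give 1 pooled FPKM per group, and for the same reason no replicate could be left out in turn. Read depth cannot be had from the FPKM, so what it limits was not assessed.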

Other observations

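Relatives of the members that act outside mitosis were listed after the values had been seen, and 16 of 18 had a row, 14 of them above 1 FPKM in each pair compared. Their median changes were -0.03 and -0.07 for CEBPA cells against CTR and P30 and 0.05 for P30 against CTR. Of the 14, 7 and 7 were lower in CEBPA cells, where 50.5% and 52.1% of all genes were. Transport kinesins lay on both sides of zero. KIF1B, a motor of vesicle and mitochondrial transport, was at 10.4 FPKM in CTR, 23.3 in CEBPA cells and 11.3 in P30, and KIF3B, of kinesin-2, at 7.47, 14.5 and 8.90, while KIF1C was at 20.04, 10.4 and 19.9. KIF5A, a conventional kinesin heavy chain, was at 19.95 FPKM in CTR, 7.16 in CEBPA cells and 11.3 in P30, so that P30 stood apart from CTR by -0.77, a larger difference than for any of the 56 mitosis genes in that comparison. Its relative KIF5B was at 40.3, 53.2 and 47.0 FPKM. PLK3, a polo kinase of stress responses, was at 8.82 FPKM in CTR, 3.17 in CEBPA cells and 5.86 in P30. Of the relatives of chromosome proteins, SMC6 was at 22.4, 14.3 and 25.05 FPKM and TOP1 at 63.3, 44.6 and 55.98.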
